A study of Homo sapiens with 6 samples.

Results

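The enzymes that make serine and that move its carbon through folate were examined in HT29 cells after depletion of aldolase A. They were taken by gene symbol as 9 of the 28278 symbols listed per library. PHGDH, PSAT1 and PSPH form the serine synthesis pathway, SHMT1 and MTHFD1 are the cytosolic folate enzymes, and SHMT2, MTHFD2, MTHFD1L and ALDH1L2 are the mitochondrial ones. The set was proposed after the difference between siALDOA and siControl had been seen, so its log2 fold changes in that comparison are given as a description with standard errors. Where an enzyme is said to be called, that too describes its place in the fit over all genes and is no independent test. HT29 is a human colorectal adenocarcinoma line with epithelial morphology. Cells of this line received siRNA targeting ALDOA (siALDOA, labelled as the knockdown genotype) or a scrambled control siRNA (siControl, labelled as wild type), and total RNA was taken after 48 h from 3 biological replicates of each. The knockdown is transient, both groups were transfected, and the labels name neither a second siRNA against ALDOA nor untransfected cells. RNA-Seq counts per gene were scaled by TMM normalization to CPM (counts scaled to the size of the library), and siALDOA was compared with siControl by edgeR's quasi-likelihood test over the 15307 genes that passed its filter on low counts.

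The counts per library ranged from 27277538 to 33237914. Ribosomal RNA genes took 13.1%, 7.71% and 8.11% of the counts in siALDOA replicates 1, 2 and 3, and 17.4%, 15.3% and 8.15% in siControl replicates 1, 2 and 3. ALDOA, the siRNA's target, stood at 283, 305 and 279.7 CPM with siALDOA and at 592, 637 and 668 CPM with siControl. All 3 siALDOA libraries thus lay below every siControl library for the target. Of 8 colon epithelial markers, 8 were tested, and their summed level ranged from 8382 to 8617 CPM with siALDOA and from 9193 to 9659 CPM with siControl. Most of this sum was KRT8 (5093 against 5595 CPM, not called) and KRT18 (1910 against 2320 CPM, called lower, log2 fold change -0.28, adjusted p = 0.0152, edgeR). Of the 8 markers, 7 were fitted lower (49.7% of all genes tested) and 1, EPCAM, higher (374 against 341 CPM, not called). Every siALDOA library lay below every siControl library for 5 of the 8 (14.6% of all genes tested). CEACAM5 was at 7.49 against 10.3 CPM (log2 fold change -0.46, adjusted p = 0.0516, edgeR). The 8 fibroblast and blood cell markers summed to between 20.3 and 21.9 CPM with siALDOA and between 17.0 and 17.6 CPM with siControl, and the T cell marker CD3E was at 0 in all 6 libraries. Most of that sum was CD14, which was higher with siALDOA (16.9 against 13.5 CPM, log2 fold change 0.32, standard error 0.10, adjusted p = 0.0485, edgeR quasi-likelihood test with Benjamini-Hochberg adjustment). The part of ribosomal RNA, the epithelial markers or CD14 in the results below was not tested as a cause.

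Serine is built from 3-phosphoglycerate, an intermediate of glycolysis below the aldolase step. PHGDH oxidizes it, PSAT1 transfers an amino group from glutamate onto the product, and PSPH removes the phosphate. The serine hydroxymethyltransferases SHMT1 and SHMT2 then split serine into glycine and a carbon unit carried by tetrahydrofolate, which the MTHFD enzymes oxidize and release as formate for the synthesis of purines, thymidylate and methionine. The mitochondrial branch of this cycle is known to be active in proliferating tumor cells, and several of its genes are known targets of the transcription factor ATF4.

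The enzyme of the second step of serine synthesis and those of the later mitochondrial folate steps were lower after ALDOA depletion, while the other tested enzymes differed by less. PSAT1 was 26.4% below siControl, MTHFD1L 20.4% and MTHFD2 19.8%. PSPH was 10.3% below without overlap. SHMT2 (7.69% below), PHGDH and MTHFD1 overlapped between the groups, and their intervals included no difference. SHMT1 was listed at 0 in all libraries and ALDH1L2 was close to 0. Of the 9 enzymes, 7 were tested, and 3 of these were called lower at an adjusted threshold of 0.05, while 0 were called higher. Among all genes tested, 5.29% were called lower, 4.36% higher and 9.66% in either direction, and nothing is read from this contrast between the shares because the set was chosen on it. At an unadjusted p under 0.05, 4 of the 7 were lower and 0 were higher, against 12.3% and 11.3% of all genes tested. All 7 were fitted below 0, as were 49.7% of all genes tested. The median log2 fold change of the 7 was -0.16 and that of all genes tested was 0.0016. All 3 siALDOA libraries lay below all 3 siControl libraries for 4 of the 7 enzymes, against 14.6% of all genes tested. In bulk RNA, fewer cells that express a gene and less of its RNA per cell cannot be told apart.

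**Figure D1:**
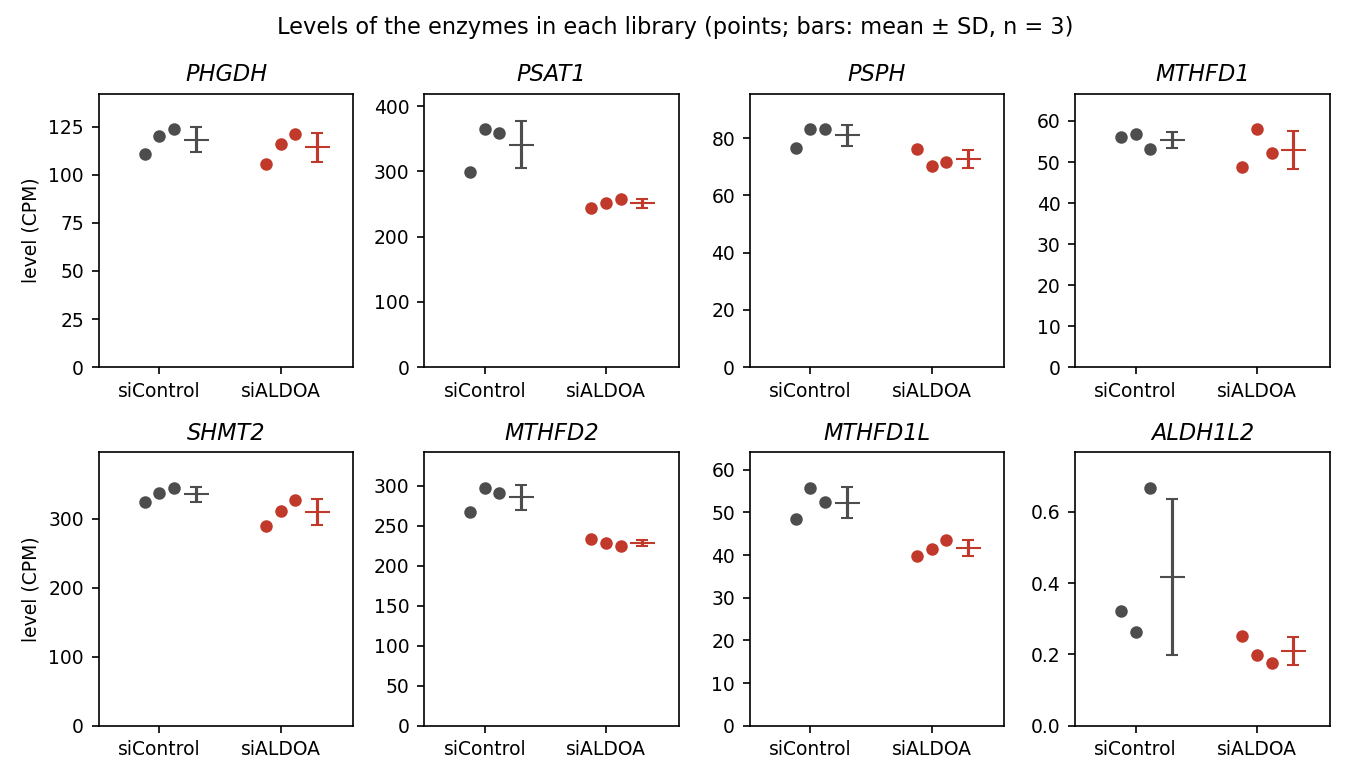
Level in CPM (y axis, from 0) of 8 enzymes in each siControl library (grey) and each siALDOA library (red), with points for libraries and bars for the mean ± SD (n = 3). For PSAT1, PSPH, MTHFD2 and MTHFD1L the red points lie below all grey points, while PHGDH, MTHFD1 and SHMT2 overlap.

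PHGDH (ENSG00000092621, chr1:119648411-119744218 in hg38), the dehydrogenase that commits 3-phosphoglycerate to serine, stood at 106, 116 and 121 CPM in siALDOA replicates 1 to 3. In siControl replicates 1 to 3 it stood at 111, 120 and 124 CPM. The groups overlapped, with means of 114 ± 7.69 and 118 ± 6.64 CPM (SD, n = 3). Its log2 fold change was -0.05 (standard error 0.065), with a 95% interval from -0.18 to 0.085. A decrease to the extent seen for PSAT1 lies outside this interval.

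PSAT1 (ENSG00000135069, chr9:78297125-78330093), the aminotransferase of the pathway, showed 244, 252 and 257 CPM with siALDOA. With siControl it showed 299.7, 365 and 358 CPM. No siALDOA library reached the lowest siControl library, and the siControl libraries were the more spread of the groups (251 ± 6.87 against 341 ± 35.8 CPM, SD, n = 3). The log2 fold change was -0.44 (standard error 0.067, 95% interval from -0.58 to -0.30), lower than in all but 4.22% of the genes tested. These values rested on 6783 to 7564 counts with siALDOA and on 9346 to 11807 counts with siControl. GENCODE names 4 pseudogenes of PSAT1, and how reads with several matches were counted is not given in the sources used here.

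PSPH (ENSG00000146733, chr7:56011051-56051604), the phosphatase of the last step, stood at 76.1, 70.1 and 71.6 CPM with siALDOA. The siControl libraries held 76.6, 83.1 and 83.1 CPM. The groups did not overlap, but siALDOA replicate 1 and siControl replicate 1 were only narrowly apart. PSPH had means of 72.6 ± 3.13 and 80.9 ± 3.75 CPM (SD, n = 3) and differed by -0.16 on the log2 scale (standard error 0.063, 95% interval from -0.29 to -0.025). It was not called after adjustment over all genes. A single PSPH pseudogene is annotated, so part of these reads could match elsewhere.

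In the mitochondria, SHMT2 (ENSG00000182199, chr12:57229573-57234935) makes glycine and methylene-tetrahydrofolate from serine. It was measured at 289, 312 and 327 CPM with siALDOA and at 323, 337 and 345 CPM with siControl. The highest siALDOA library lay above the lowest siControl library. The means were 309 ± 18.8 and 335 ± 10.8 CPM (SD, n = 3), and the log2 fold change was -0.12 (standard error 0.058, 95% interval from -0.24 to 0.0062).

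MTHFD2 (ENSG00000065911, chr2:74186172-74217565), the mitochondrial methylene-tetrahydrofolate dehydrogenase and cyclohydrolase, came next in the path. Its levels were 233, 228 and 225 CPM with siALDOA and 267, 297 and 291 CPM with siControl. The siALDOA libraries lay close together and below every siControl library (229 ± 3.90 against 285 ± 16.0 CPM, SD, n = 3). For MTHFD2 the log2 fold change was -0.32 (standard error 0.057, 95% interval from -0.44 to -0.20). Of the 4403 bases of its main transcript, 1619 are shared with exons of genes on the opposite strand, among them SLC4A5, and the strand setting of the counting is not given in the sources used here. SLC4A5 itself was listed between 12.3 and 14.9 CPM, and its difference was -0.09 on the log2 scale (standard error 0.11). GENCODE also names 7 MTHFD2 pseudogenes.

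MTHFD1L (ENSG00000120254, chr6:150865679-151101887), the mitochondrial formyl-tetrahydrofolate synthetase that releases formate, was found at 39.8, 41.4 and 43.6 CPM with siALDOA. With siControl its levels were 48.6, 55.8 and 52.4 CPM. The groups were again apart, with means of 41.6 ± 1.91 and 52.2 ± 3.63 CPM (SD, n = 3). MTHFD1L differed by -0.33 on the log2 scale (standard error 0.072, 95% interval from -0.48 to -0.18), which was nearly that of MTHFD2. ALDH1L2 (ENSG00000136010, chr12:105019784-105107643), the mitochondrial formyl-tetrahydrofolate dehydrogenase, gave 7, 6 and 5 counts with siALDOA and 10, 8 and 22 counts with siControl. It did not pass the filter on low counts, and its siControl mean rests largely on replicate 3, so no fold change is given at this depth.

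In the cytosol, MTHFD1 (ENSG00000100714, chr14:64388031-64463457) carries the dehydrogenase, cyclohydrolase and synthetase activities in a single protein. Its levels were 48.9, 58.0 and 52.1 CPM with siALDOA and 56.1, 56.9 and 53.1 CPM with siControl. The siALDOA libraries held both the lowest and the highest value. The means were 53.0 ± 4.63 and 55.4 ± 1.98 CPM (SD, n = 3), and differed by -0.06 on the log2 scale (standard error 0.072, 95% interval from -0.21 to 0.088). SHMT1 (ENSG00000176974, chr17:18327860-18363563), the cytosolic serine hydroxymethyltransferase, was listed at 0 in all 6 libraries. RPL7A, EIF3K, FBL, CANX and NDUFS1, which all growing cells use, were also listed at 0 (these genes were chosen after their values were seen), as were 7308 symbols in all. The 0 of SHMT1 is therefore given only as listed. SMCR8, which shares 184 exon bases with SHMT1, had 1707 to 2157 counts per library.

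**Figure D2:**
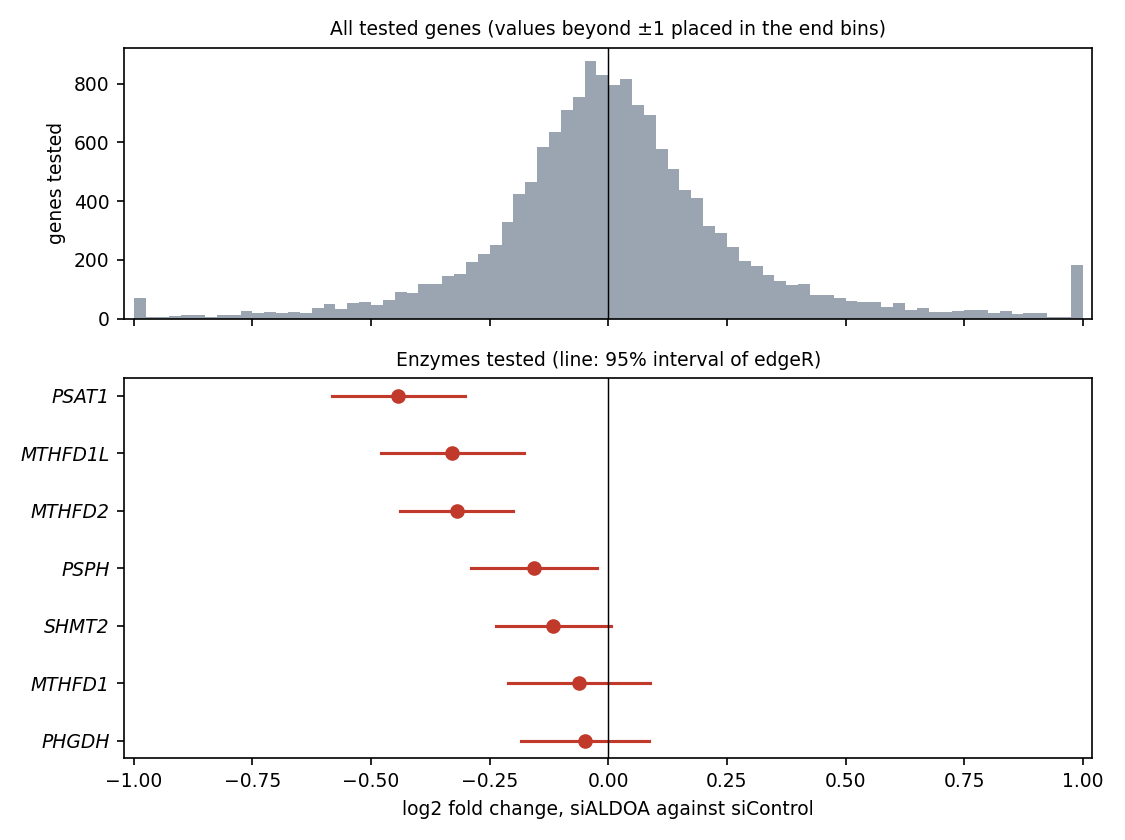
Log2 fold change of siALDOA against siControl (x axis) for all 15307 genes tested (upper panel, number of genes on the y axis) and for the 7 enzymes tested (lower panel, points with lines for the 95% interval). PSAT1, MTHFD1L, MTHFD2 and PSPH have intervals below 0, and those of SHMT2, MTHFD1 and PHGDH include 0.

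Ratios of counts of a pair of enzymes within a library do not depend on the scaling of the libraries, and they were compared as a description for neighbours in the path. PSAT1 gave 2.30, 2.17 and 2.13 counts per PHGDH count with siALDOA, against 2.70, 3.03 and 2.90 with siControl. The groups did not overlap, and the siALDOA mean was 76.5% of the siControl mean. PSAT1 per PSPH was 3.20, 3.59 and 3.59 with siALDOA and 3.91, 4.39 and 4.31 with siControl, again without overlap (82.4% of siControl). PSAT1 was thus lower relative to the enzymes on either side of it. These ratios restate the log2 fold changes of a set chosen with this comparison known, and add no support to them.

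Within the folate path, 2 of the 4 pairs compared did not overlap. MTHFD2 per SHMT2 was 0.805, 0.732 and 0.689 with siALDOA and 0.827, 0.884 and 0.845 with siControl (87.1% of siControl, no overlap). For the synthetases of the compartments, MTHFD1L per MTHFD1 was 0.814, 0.714 and 0.836 with siALDOA and 0.866, 0.982 and 0.986 with siControl (83.5%, no overlap). MTHFD2 per MTHFD1 was 4.77, 3.93 and 4.32 with siALDOA and 4.77, 5.23 and 5.49 with siControl (84.1% of siControl), and siALDOA replicate 1 overlapped with siControl replicate 1. Also, MTHFD2 per MTHFD1L was 5.51 ± 0.344 with siALDOA and 5.47 ± 0.123 with siControl (SD, n = 3), and these groups overlapped. The proportion of MTHFD2 to MTHFD1L thus did not differ beyond the spread of the libraries.

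**Figure D3:**
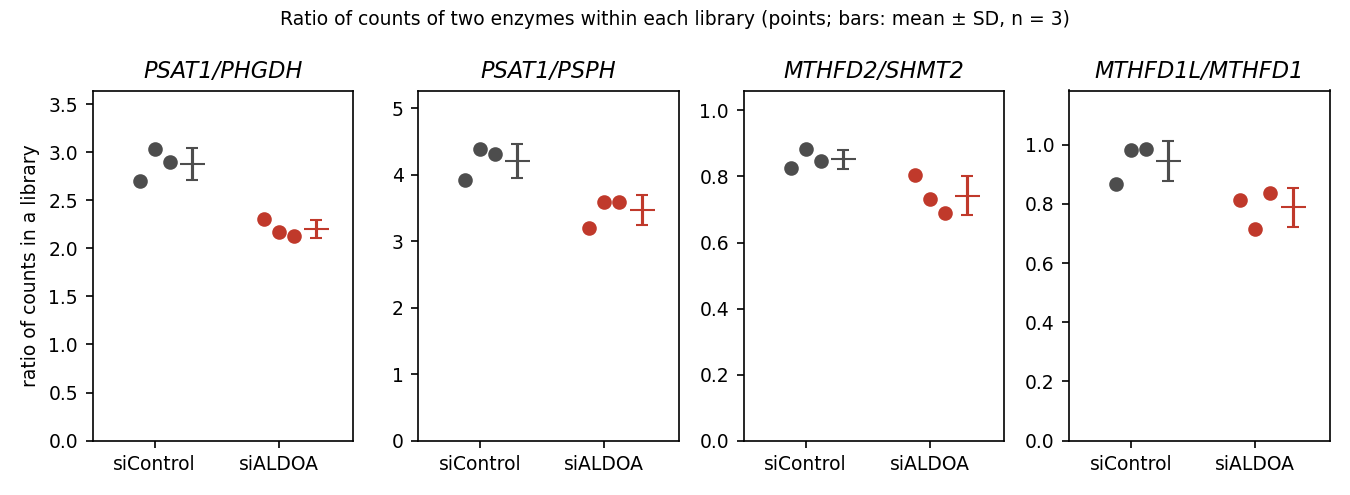
Ratio of the counts of one enzyme to those of another within each library (y axis, from 0), for siControl (grey) and siALDOA (red), with points for libraries and bars for the mean ± SD (n = 3). In the 4 pairs shown, all siALDOA libraries lie below all siControl libraries, unlike the pairs MTHFD2 to MTHFD1 and MTHFD2 to MTHFD1L, which overlapped and are not drawn.

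To compare levels between the enzymes, CPM were divided by the length in kb of the main transcript. Per kb, SHMT2 and PSAT1 were the most abundant with siControl, at 155 ± 5.0 and 155 ± 16.2 CPM per kb (SD, n = 3). The SD covers the spread between libraries of a gene and not the error of comparing different genes. The choice of transcript, pseudogenes and shared exons were not accounted for. SHMT2 and PSAT1 were followed by MTHFD2 (64.8 ± 3.63) and PHGDH (63.4 ± 3.56), and then by PSPH (41.0 ± 1.90), MTHFD1 (17.5 ± 0.627) and MTHFD1L (15.1 ± 1.05 CPM per kb). ALDH1L2 was at 0.0561 ± 0.0295 CPM per kb. With siALDOA, SHMT2 was at 143 ± 8.74 and PSAT1 at 114 ± 3.11 CPM per kb, while PHGDH was at 61.2 ± 4.12 and MTHFD2 at 52.0 ± 0.885 CPM per kb. The level of MTHFD1 was 16.8 ± 1.47 and that of MTHFD1L 12.1 ± 0.553 CPM per kb. The summed level of the 9 enzymes, dominated by PSAT1, SHMT2 and MTHFD2, was 1037, 1077 and 1098 CPM with siALDOA and 1183, 1315 and 1307 CPM with siControl.

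The windows around the start sites of enzymes that were lower and of enzymes that overlapped between the groups are shown to compare the letters known for regulators of this pathway. They run from 250 bases before to 50 bases after the start in RefSeq (GRCh38.p14), and 6 of the 9 enzymes have an entry. PSPH, SHMT2 and ALDH1L2 have none, and 1 of the 4 windows of MTHFD1L is shown. Letters in capitals mark matches on either strand to the core of the ATF4-CEBP element (TGATGNAAN), the E-box bound by MYC (CACGTG), the core of the antioxidant element bound by NFE2L2 (TGACNNNGC) and the CCAAT box (CCAAT, or ATTGG on the other strand). No printed matches of different motifs overlap. The windows are PSAT1 at chr9:78296875-78297174, MTHFD2 at chr2:74198365-74198664, MTHFD1L at chr6:150866236-150866535, PHGDH at chr1:119711684-119711983 and MTHFD1 at chr14:64388103-64388402, all on the plus strand and written 5′ to 3′.
PSAT1: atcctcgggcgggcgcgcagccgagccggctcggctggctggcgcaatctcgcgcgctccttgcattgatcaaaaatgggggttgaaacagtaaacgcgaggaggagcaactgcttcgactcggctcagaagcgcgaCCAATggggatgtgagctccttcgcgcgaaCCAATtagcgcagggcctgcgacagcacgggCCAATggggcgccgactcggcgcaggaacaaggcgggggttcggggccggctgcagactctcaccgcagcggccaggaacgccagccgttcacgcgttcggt
MTHFD2: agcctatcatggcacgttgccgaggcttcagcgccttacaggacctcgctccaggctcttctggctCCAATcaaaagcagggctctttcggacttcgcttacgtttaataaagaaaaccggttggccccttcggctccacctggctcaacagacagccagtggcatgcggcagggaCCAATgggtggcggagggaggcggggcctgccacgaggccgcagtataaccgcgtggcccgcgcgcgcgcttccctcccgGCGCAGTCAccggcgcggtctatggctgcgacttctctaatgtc
MTHFD1L: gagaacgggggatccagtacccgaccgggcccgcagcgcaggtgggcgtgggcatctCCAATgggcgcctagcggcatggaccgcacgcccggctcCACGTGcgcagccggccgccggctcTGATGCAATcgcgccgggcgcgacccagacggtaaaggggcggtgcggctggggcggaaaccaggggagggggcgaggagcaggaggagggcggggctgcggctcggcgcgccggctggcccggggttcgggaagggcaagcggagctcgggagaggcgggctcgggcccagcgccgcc
PHGDH: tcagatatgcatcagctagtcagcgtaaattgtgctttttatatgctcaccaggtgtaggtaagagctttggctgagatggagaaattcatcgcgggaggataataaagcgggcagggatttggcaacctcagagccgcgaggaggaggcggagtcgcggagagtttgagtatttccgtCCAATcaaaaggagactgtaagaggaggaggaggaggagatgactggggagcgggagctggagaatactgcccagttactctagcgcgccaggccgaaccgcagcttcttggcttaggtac
MTHFD1: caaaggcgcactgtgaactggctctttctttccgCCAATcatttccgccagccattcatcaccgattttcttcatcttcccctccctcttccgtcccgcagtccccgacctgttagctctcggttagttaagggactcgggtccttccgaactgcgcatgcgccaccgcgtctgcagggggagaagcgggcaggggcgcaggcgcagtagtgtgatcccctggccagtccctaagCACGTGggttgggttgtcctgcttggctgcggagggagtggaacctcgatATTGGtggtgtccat

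Among these enzymes, the ATF4-CEBP core was found in MTHFD1L alone, as TGATGCAAT at position -129 from the start, and 3.61% of the 35116 promoter windows, or 2.08% of the 16257 windows of tested genes, hold it. In other windows of MTHFD1L, drawn from other start sites, the same letters lie at -90 and at 24. MTHFD1L and MTHFD1 hold the E-box, at -154 and -15, as do 7.26% of all windows and 9.21% of those of tested genes. The antioxidant core was found in MTHFD2, on the other strand just after the start, and is in 13.3% of all windows and 14.4% of those of tested genes. A CCAAT box was found in all 6 enzymes with an entry, SHMT1 included, and in 34.6% of all windows, as of those of tested genes. PSAT1 carries 3 copies, at -113, -83 and -52. MTHFD1L, which was lower, and MTHFD1, which was not called, thus share the E-box and CCAAT letters. These matches describe the letters only, and their absence from a window says nothing of a factor.

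The genes closest in pattern to PSAT1 and MTHFD2 were found by the root mean square difference of log2 CPM, centred on each gene's mean, over the 6 libraries and 10078 genes of at least 10 CPM. Closest to PSAT1 were SRXN1 (0.042), GPR157 (0.045) and KLF11 (0.046). MTHFD1L ranked 25 and MTHFD2 ranked 57 on this list, while PSPH ranked 972, SHMT2 1504, PHGDH 2523 and MTHFD1 3528. Closest to MTHFD2 were TPMT (0.018), TM4SF4 (0.019) and TGFA (0.020), with MTHFD1L at rank 80, PSAT1 at 393 and PSPH at 444. PSAT1 and MTHFD2 were thus nearer to MTHFD1L and to each other than to PHGDH or MTHFD1. The measure includes the difference between the groups and is given without a test.

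The remaining genes of the pathway were read from 8 lists by role, with 66 genes, of which 58 were tested. Of these 58, 9 were called lower and 0 higher by edgeR's quasi-likelihood test with Benjamini-Hochberg adjustment, against 5.29% and 4.36% of all genes tested. The median log2 fold change of the 58 was -0.04. Of the 9 calls, 1 was ALDOA itself, the target of the siRNA and the single call in glycolysis. The other 8 were spread over transport, the folate and methionine cycles, glycine entry and transcription factors.

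In transport, 2 of 9 tested genes were called lower (5.29% of all genes tested), while 5 of the 9 were fitted below 0 and 4 above. SLC1A4, which carries serine and other neutral amino acids across the cell membrane, stood at 37.4, 41.7 and 37.8 CPM with siALDOA and at 47.8, 56.3 and 49.0 CPM with siControl, without overlap. Its log2 fold change was -0.39 (standard error 0.077, adjusted p = 0.00223, edgeR). SLC25A32, which brings folate into mitochondria, fell by 0.28 on the log2 scale (standard error 0.080, adjusted p = 0.0317, edgeR), although siALDOA replicate 1, at 49.0 CPM, lay above siControl replicate 1, at 48.5 CPM. The call of SLC25A32 was lost with library totals only (-0.21 on the log2 scale), without siALDOA replicate 2 (-0.25) or 3 (-0.23), and without siControl replicate 2 (-0.23) or 3 (-0.26), whereas that of SLC1A4 held in 16 of 16 alternatives. SLC1A5, the most abundant transporter of the list, gave 1184 ± 142 and 1322 ± 40.2 CPM (SD, n = 3), or -0.16 on the log2 scale (standard error 0.078, adjusted p = 0.227, edgeR). FOLR1, a folate receptor named after its values were seen, had every siALDOA library above every siControl library (5.09 ± 0.123 and 3.48 ± 0.910 CPM, SD, n = 3; log2 fold change 0.55, standard error 0.20, adjusted p = 0.0930, edgeR), and was called higher with the likelihood ratio test and without a filter on low counts. FOLR2 was listed at 0.

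Of the other folate cycle enzymes, 1 of 10 tested genes was called lower (5.29% of all genes tested). FPGS, which adds glutamates to folate and so keeps it in the cell, fell from 69.2 ± 3.92 to 59.0 ± 4.09 CPM (SD, n = 3; log2 fold change -0.23, standard error 0.069, adjusted p = 0.0414, edgeR). FPGS kept its direction but was not called with library totals only (-0.16 on the log2 scale), without siALDOA replicate 1 (-0.18) or 2 (-0.24), or without siControl replicate 2 (-0.21) or 3 (-0.20). The median log2 fold change of this list was 0.054, and 7 of its 10 tested genes were fitted as higher.

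Among 6 tested genes of glycine cleavage and entry, 4 were fitted below 0 and 2 above. The single call was SLC6A9, lower with siALDOA (5.29% of all genes tested were called lower). This glycine transporter was at 10.02, 12.8 and 13.5 CPM with siALDOA and at 16.8, 18.7 and 19.2 CPM with siControl. The groups did not overlap, and it fell by 0.59 on the log2 scale (standard error 0.12, adjusted p = 0.00208, edgeR). The call of SLC6A9 held in 16 of 16 alternatives. DLD, the shared dehydrogenase subunit of glycine cleavage, had a 95% interval from -0.14 to 0.17. GLDC, the decarboxylase of this system, was close to 0 (0 CPM with siALDOA and 0.020 CPM with siControl) and was not tested.

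In the methionine cycle and transsulfuration, 2 of 6 tested genes were called lower (5.29% of all genes tested). Of the 6, 5 had every siALDOA library below every siControl library (14.6% of all genes tested). MTR, the methionine synthase that takes its methyl group from folate, fell from 47.4 ± 2.04 to 39.6 ± 1.53 CPM (SD, n = 3; log2 fold change -0.26, standard error 0.069, adjusted p = 0.0209, edgeR). MTRR, its reactivating reductase, fell from 49.8 ± 1.27 to 42.1 ± 0.871 CPM (SD, n = 3; log2 fold change -0.24, standard error 0.066, adjusted p = 0.0240, edgeR). The values of the synthase and its partner lay within a standard error of each other. With library totals only neither was called (MTR -0.19 and MTRR -0.17 on the log2 scale). The call of MTR was also lost without siALDOA replicate 2 (-0.26) or 3 (-0.23) and without siControl replicate 1 (-0.25) or 3 (-0.24), and that of MTRR without siALDOA replicate 2 (-0.22) or 3 (-0.25) and without siControl replicate 2 (-0.23) or 3 (-0.23). CTH, which makes cysteine from cystathionine, and AHCY, which hydrolyses S-adenosylhomocysteine, are named after their values were seen. CTH was at 6.03 ± 0.286 and 7.72 ± 0.190 CPM (SD, n = 3; log2 fold change -0.36, standard error 0.14, adjusted p = 0.112, edgeR), and AHCY at 237 ± 7.07 and 260.2 ± 3.07 CPM (SD, n = 3; log2 fold change -0.13, standard error 0.054, adjusted p = 0.136, edgeR), with siALDOA first. MAT2B, the regulatory partner of MAT2A and likewise named after its values were seen, had every siALDOA library above every siControl library (71.6 ± 1.23 and 63.3 ± 0.818 CPM, SD, n = 3; log2 fold change 0.18, standard error 0.061, adjusted p = 0.0727, edgeR), and was called higher with the replicate block. MAT2A, which makes S-adenosylmethionine, had a log2 fold change of -0.07 (95% interval from -0.18 to 0.044).

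Purine synthesis, which takes up formyl groups from folate, had 0 of 8 tested genes called, with log2 fold changes from -0.18 to 0.14. PAICS, its most abundant member, was at 207 ± 11.5 CPM with siALDOA and 211 ± 8.68 CPM with siControl (SD, n = 3), and its 95% interval ran from -0.15 to 0.094. Of the other users of serine, 0 of 7 tested genes were called. SPTLC2, a subunit of the serine palmitoyltransferase that starts sphingolipid synthesis, had 198 ± 6.09 CPM with siALDOA and 182 ± 3.22 CPM with siControl (log2 fold change 0.12, standard error 0.055, adjusted p = 0.199, edgeR).

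In glycolysis around 3-phosphoglycerate, ALDOA was the single call among 6 genes (log2 fold change -1.13, standard error 0.060, adjusted p = 6.95e-11, edgeR). GAPDH, which acts between aldolase and 3-phosphoglycerate, gave 2737 ± 221 CPM with siALDOA and 2536 ± 141 CPM with siControl (SD, n = 3), with a 95% interval of the log2 fold change from -0.061 to 0.28. The other 4 genes of this list, PGK1, PGAM1, ENO1 and PKM, did not pass the test. PGAM1, chosen here after its values were seen, differed by -0.16 on the log2 scale (standard error 0.054, adjusted p = 0.0782, edgeR) and was called lower with DESeq2, with the replicate block and without siALDOA replicate 1.

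Of 6 transcription factors known to act on serine and folate genes, 2 were called lower (5.29% of all genes tested). All 6 were fitted below 0 (49.7% of all genes tested). For 4 of them every siALDOA library lay below every siControl library (14.6% of all genes tested). CEBPG, a dimerization partner of ATF4, was at 183, 176 and 181 CPM with siALDOA and at 210.1, 225 and 220.1 CPM with siControl (log2 fold change -0.28, standard error 0.055, adjusted p = 0.00238, edgeR). CEBPB, a related factor, fell from 188 ± 3.02 to 164 ± 6.52 CPM (SD, n = 3; log2 fold change -0.20, standard error 0.056, adjusted p = 0.0292, edgeR). Neither overlapped between the groups. With library totals only the calls of CEBPG (-0.21 on the log2 scale) and CEBPB (-0.12) were lost, and that of CEBPB also without siALDOA replicate 3 (-0.17) and without siControl replicate 2 (-0.19) or 3 (-0.20). MYC and NFE2L2, named after their values were seen, did not overlap either but were not called. MYC was at 135 ± 8.64 CPM with siALDOA and 153 ± 2.70 CPM with siControl (SD, n = 3; log2 fold change -0.18, standard error 0.060, adjusted p = 0.0663, edgeR), and was called lower with DESeq2, without a filter on low counts and with the replicate block. NFE2L2 was at 102 ± 7.97 and 115 ± 4.37 CPM (SD, n = 3; log2 fold change -0.17, standard error 0.065, adjusted p = 0.109, edgeR), and was called lower with the replicate block and without siALDOA replicate 1. ATF4 mRNA was at 529, 532 and 537 CPM with siALDOA and at 529, 549 and 554 CPM with siControl, and differed by -0.03 on the log2 scale (95% interval from -0.14 to 0.081) that turned to 0.04 when libraries were scaled by their totals only. ATF4 is known to be controlled mainly at translation, which counts of mRNA do not measure.

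**Figure D4:**
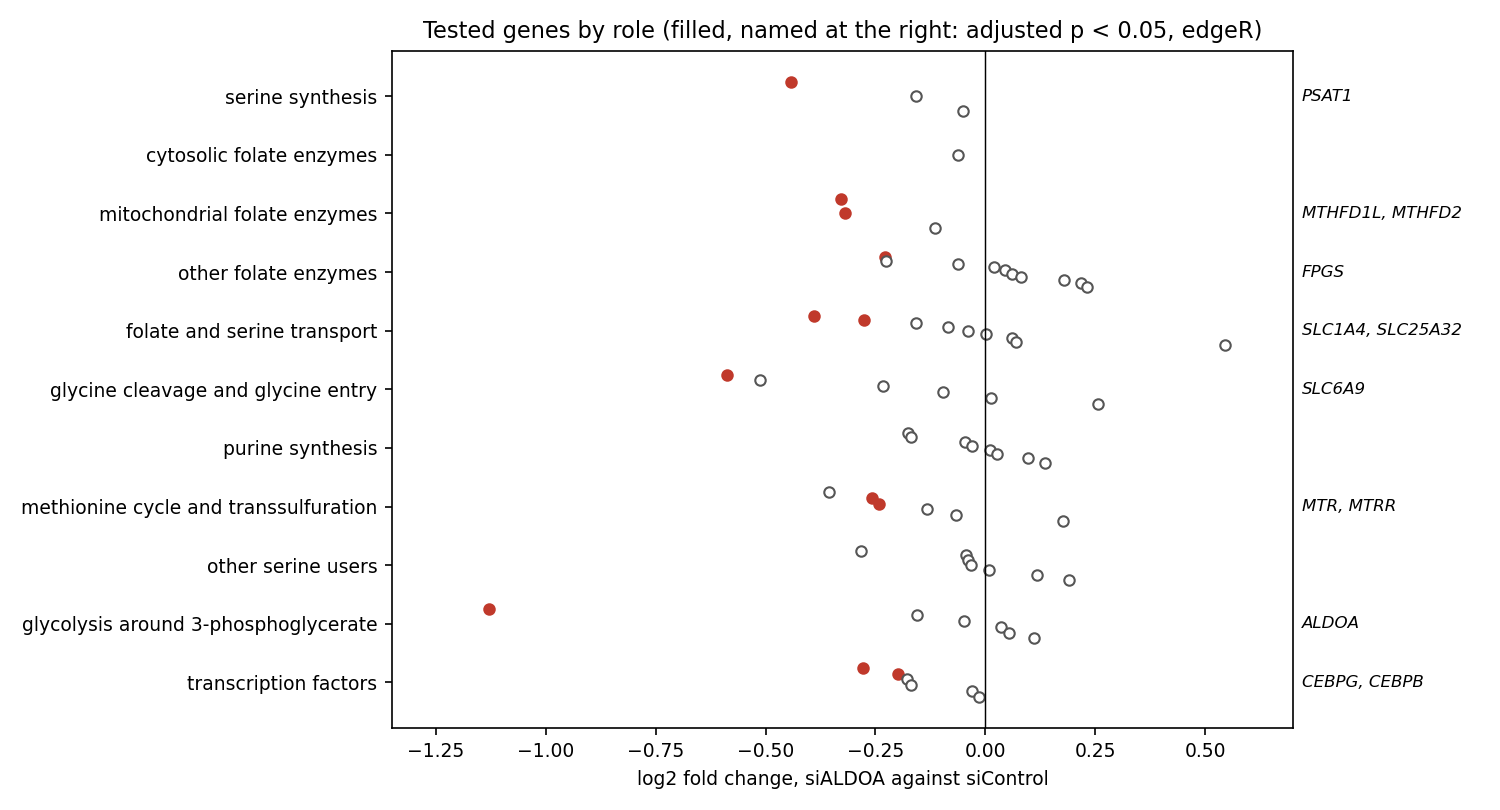
Log2 fold change of siALDOA against siControl (x axis) for each tested gene, in rows by role, with the enzymes in the upper 3 rows. Filled red points passed an adjusted threshold of 0.05 and are named at the right, and all of them lie below 0.

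The differences of the enzymes under other ways to process the counts are given as a description, since the enzymes were chosen on this comparison and all settings use the same libraries. Over 16 alternatives PSAT1 lay between -0.53 and -0.37 on the log2 scale and was called in 16. MTHFD2 lay between -0.36 and -0.25 and was called in 15, and MTHFD1L lay between -0.38 and -0.26 and was called in 14. Scaling by library totals only, without TMM, ended the calls of MTHFD2 (-0.25) and MTHFD1L (-0.26). With the same scaling but without the ribosomal RNA genes, all 3 were called. Leaving out siControl replicate 2 ended the call of MTHFD1L (-0.28). PSPH lay between -0.20 and -0.086 and SHMT2 between -0.16 and -0.04, and both were called in 0 of 16. PHGDH and MTHFD1 turned to 0.02 and 0.01 with library totals only. In the 3 libraries with less than 10% ribosomal RNA counts (siALDOA replicates 2 and 3 against siControl replicate 3, chosen after seeing the data), PSAT1 gave -0.49, MTHFD2 -0.36 and MTHFD1L -0.30.

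**Figure D5:**
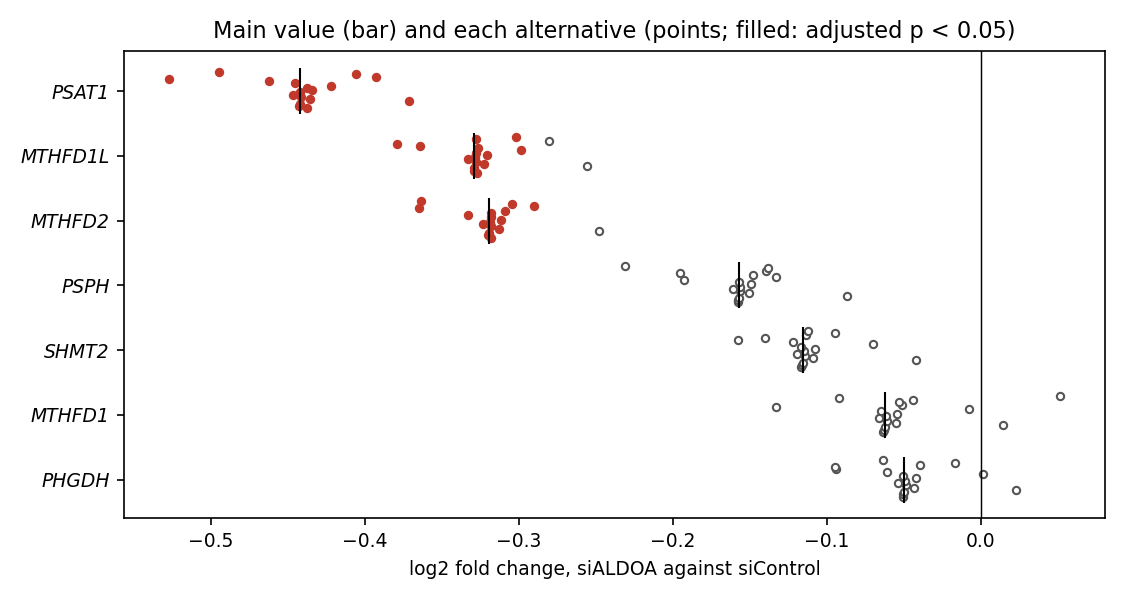
Log2 fold change (x axis) of the 7 enzymes tested under each alternative (points, filled where the adjusted threshold of 0.05 was passed) with the reported value as a bar. PSAT1 is filled throughout, MTHFD1L and MTHFD2 nearly throughout, and the points of PHGDH and MTHFD1 reach across 0.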

How the data were processed

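RNA-Seq of 6 HT29 libraries was analysed, 3 with siALDOA and 3 with siControl, grouped by the treatment in the sample labels. The authors aligned reads to hg38 with TopHat2, counted them with gfold and deposited raw counts per gene symbol, and named edgeR and limma for their own comparison. The annotation, the strand setting and how multi-mapped reads were counted are not given in the sources used here. The totals of 27277538 to 33237914 counts per library set the precision, and standard errors cover the spread between replicates.

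Counts were tested in R 4.3.3 with edgeR 4.0.16 (filterByExpr by group, TMM, quasi-likelihood F-test, no covariate) and adjusted by the Benjamini-Hochberg method over all 15307 genes tested, with a threshold of 0.05. The standard error was taken as the size of a log2 fold change over the root of its F statistic, and 95% intervals come from the same fit. A prior count of 2 was used for log2 CPM. The method was tested on simulated data. Lengths, positions and pseudogene names came from GENCODE release 44 and promoters from RefSeq, read with python 3.11.15 and pandas 2.3.3, and figures were drawn with matplotlib 3.10.9.

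The enzymes and lists were chosen with earlier results of these data known. Named genes were the 9 enzymes, ALDOA, ATF4, up to 4 called genes by smallest p and the gene of highest CPM of each list, and the 3 genes nearest to PSAT1 and to MTHFD2. Some genes of the lists are not reported here by name. The alternatives were limma-voom (limma 3.58.1), DESeq2 1.42.0, edgeR's likelihood ratio test, library totals only with and without ribosomal RNA genes, upper quartile, DESeq2 size factors, no filter, a minimum of 10 counts per library, the replicate number as a block, and leaving out single libraries. Replicate libraries of a group differed by more than sampling noise.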

Additional observations from a re-analysis of the deposited data

How the results depend on the processing

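With library totals only, 279 genes in all, 1 enzyme (PSAT1) and 3 other pathway genes were called lower and 896 genes in all higher, against 810 lower and 668 higher with TMM, and the median of all genes moved to 0.075, while without ribosomal RNA genes the same scaling called 3 enzymes and 9 other pathway genes. Higher calls among the other pathway genes numbered 1 with the likelihood ratio test, 2 without a filter on low counts and 2 with the replicate block. On leaving out single libraries, the genes called lower ranged from 471 to 790 and those called higher from 359 to 644, both lowest values without siControl replicate 2 or 3. Leaving out a library gave 2 to 3 enzymes called lower, 4 to 10 other pathway genes called lower and 0 to 1 called higher. The low ends of the pathway count were 4 without siControl replicate 3 and 5 without siControl replicate 2, siALDOA replicate 2 or siALDOA replicate 3. Library totals only turned the log2 fold change of PHGDH to 0.023, of MTHFD1 to 0.014 and of ATF4 to 0.041. PHGDH ranged from -0.094 to 0.0016 on leaving out single libraries, the higher value without siALDOA replicate 1, and MTHFD1 was 0.052 in the 3 libraries with less than 10% ribosomal RNA counts, an alternative chosen after seeing the data in which the single siControl library is assumed to vary like the siALDOA group. The cause of these changes was not tested.

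Deviations of same-numbered libraries from their group means correlated at 0.035, 0.027 and 0.026. Correlations this small, from 3 libraries per group, cannot settle whether the replicate numbers pair the libraries. Each library correlated best with its own number, as a hint from the data and not from the design. With the replicate block, 1175 genes were called lower and 987 higher, with 3 enzymes and 12 other pathway genes lower. ALDH1L2, at 5 to 22 counts, and SHMT1, listed at 0, are beyond what this depth or counting can show.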
